A study of Mus musculus with 28 samples.

Results

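Tbx21, Eomes, Id2, Id3 and Prdm1 encode 5 transcription regulators of effector and memory T cells. They were followed on 28 microarrays by taking every probe set whose platform annotation gives 1 of these symbols, which found 8 of 20380 probe sets and 5 of 12393 genes. Tbx21, Id3 and Prdm1 had 1 probe set each, Eomes had 2 and Id2 had 3. The RNA came from mouse T cells of the C57BL/6N background, either CD8+ cells with the transgenic OT1 receptor or CD4+ cells with the transgenic AND receptor, sorted to high purity. Every group passed through 2 days of culture with IL7 at 5 ng/ml. On day 2, stimulated cells had been cultured on anti-CD3 and anti-CD28 antibodies coated at 10 µg/ml and unstimulated cells on untreated plates, with 3 arrays per group. For day 5, cells were transferred for 3 further days. Continuously stimulated cells were stimulated in culture and then placed in antigen-expressing hosts (dtg-O or -M), transiently stimulated cells were stimulated and then placed in antigen-free hosts, and unstimulated cells went to antigen-free hosts without stimulation. These day 5 groups had 3 arrays each, except the transient and the unstimulated CD4 group with 2 each. The receptor and its antigen differ along with the lineage, so that a CD8 minus CD4 difference cannot assign a value to any 1 of them. The RNA was amplified in 2 rounds before hybridization. In such bulk RNA, fewer cells that express a gene and less of its RNA per cell cannot be told apart.

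T-bet, the product of Tbx21, and Eomesodermin, the product of Eomes, are related T-box activators. T-bet is the main inducer of the type 1 programme with interferon-γ, and Eomesodermin acts beside it in cytotoxic and memory CD8 cells. Id2 and Id3 lack a DNA-binding region and hold E proteins away from their E box sites, Id2 being tied to effector and Id3 to memory precursor and naive-like states. Prdm1 encodes Blimp-1, a transcriptional repressor known to drive the terminal differentiation of effector T cells and plasma cells.

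The genes lie on 5 chromosomes of the mouse assembly GRCm38.p6: Tbx21 at chr11:97098007-97115331, Eomes at chr9:118478186-118486132, Id2 at chr12:25093799-25096092, Id3 at chr4:136143822-136145392 and Prdm1 at chr10:44437174-44528558. The sequences below, from RefSeq (GRCm38.p6), are the 250 bases before the start that the promoter table gives for 4 of them. Tbx21 and Eomes are shown as T-box relatives whose signals parted between the groups, and Id3 and Prdm1 as the pair whose signals ran against each other. Capitals mark matches to an E box (CANNTG) or an AP-1 site (TGANTCA), the places where E proteins and the Fos and Jun family are known to bind.
Tbx21, chr11:97115332-97115581, minus strand: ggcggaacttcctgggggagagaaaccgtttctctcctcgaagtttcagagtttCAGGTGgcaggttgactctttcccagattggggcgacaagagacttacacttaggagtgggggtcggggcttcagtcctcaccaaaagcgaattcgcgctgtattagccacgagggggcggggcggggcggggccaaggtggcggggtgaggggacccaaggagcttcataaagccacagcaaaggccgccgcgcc
Eomes, chr9:118477939-118478188, plus strand: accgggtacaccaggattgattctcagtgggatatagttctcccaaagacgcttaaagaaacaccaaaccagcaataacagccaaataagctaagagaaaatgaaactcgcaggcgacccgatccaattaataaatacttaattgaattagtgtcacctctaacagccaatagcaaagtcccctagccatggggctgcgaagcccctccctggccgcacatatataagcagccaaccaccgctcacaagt
Id3, chr4:136143572-136143821, plus strand: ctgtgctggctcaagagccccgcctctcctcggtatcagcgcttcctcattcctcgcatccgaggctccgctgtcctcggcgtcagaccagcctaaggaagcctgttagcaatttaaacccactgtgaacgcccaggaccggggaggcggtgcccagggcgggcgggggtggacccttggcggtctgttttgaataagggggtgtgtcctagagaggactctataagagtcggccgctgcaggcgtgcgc
Prdm1, chr10:44458749-44458998, minus strand: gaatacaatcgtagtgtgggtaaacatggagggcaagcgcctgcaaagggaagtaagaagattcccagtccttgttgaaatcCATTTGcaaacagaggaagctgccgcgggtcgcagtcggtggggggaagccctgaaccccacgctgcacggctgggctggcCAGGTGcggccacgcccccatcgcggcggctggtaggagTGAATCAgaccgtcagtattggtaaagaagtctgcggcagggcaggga
The table's starts of Eomes and Prdm1 lie within the annotated span of the gene, a few bases in for Eomes and far in for Prdm1, so that the Prdm1 window is that of 1 of its starts.

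Motifs were searched on both strands in the same window of all 32851 promoters of the table. An E box was found once before Tbx21, at 196 bases before the start, and at 168 and 87 bases before the start of Prdm1. None was found before Eomes or Id3, while 66.2% of all promoters held at least 1. The AP-1 site stood at 48 bases before the start of Prdm1 and in no other of the 5 windows, against 6.75% of all promoters. The window of Id2, which is not printed, held 1 E box at 196 bases before its start. The T-box motif GGTGTGA (3.33% of promoters), the STAT motif TTCNNNGAA (7.02%) and the Blimp-1 core AGNGAAAG (7.3%) had no match in any of the 5 windows. The share of G and C was 46.4% before Eomes and 59.2% to 62.8% before the other 4, with a median of 52.4% over all promoters. A match is a run of letters only, and the missing letters of a window leave binding elsewhere unmeasured.

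Values are the deposited log2 signals. Differences were tested with limma, a mean per group with moderated variances, and a call needed an adjusted p below 0.05 (Benjamini-Hochberg over 12393 genes). The array medians were 6.29 to 6.53, except for 4.97 on the third unstimulated day 2 array labelled CD8 and 4.83 on that labelled CD4. These arrays also went against their labels in lineage markers. Cd8a, a chain of the CD8 coreceptor, read 5.78 on the array labelled CD8 and 9.88 on that labelled CD4, whereas the other unstimulated day 2 arrays read 11.93 and 11.65 for CD8 and 6.59 and 6.90 for CD4. On these 2 arrays Cd4, the CD4 coreceptor, read 7.02 (labelled CD8) and 5.40 (labelled CD4), against 7.35 and 7.21 on the other unstimulated CD8 arrays and 8.77 and 8.41 on the other CD4 ones. Whether their labels were exchanged was not tested, and they are kept in the groups their labels name. Day 2 and between-day results that rest on them are given with and without them. On day 5 Cd8a was 11.70 to 12.99 in CD8 cells and 5.34 to 6.22 in CD4 cells. Cd4 was 9.22 to 9.86 in continuous and unstimulated CD4 cells, but 7.68 and 7.88 in transient CD4 cells, nearer to the 6.17 to 7.25 of CD8 cells. Zbtb7b, the CD4 lineage factor ThPOK, was 7.84 and 7.85 in transient CD4 cells, against 9.39 and 9.25 in unstimulated CD4 cells. These transient CD4 arrays are those with high B and plasma cell markers, described beside Prdm1. The 3' minus 5' difference of the β-actin control probe sets, a sign of RNA length, was 0.31 to 1.02 in most day 5 groups, 1.92 to 2.44 in unstimulated CD8 cells and 2.42 to 2.73 in transient CD4 cells. On day 2 it moved with stimulation, at 1.38 to 1.69 in stimulated and 2.28 to 4.27 in unstimulated CD8 cells, and at 1.11 to 1.39 in stimulated and 3.37 to 4.30 in unstimulated CD4 cells. Its part in the day 2 and day 5 differences was not tested.

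Tbx21 answered stimulation most strongly of the 5 on day 2. Its signal was 10.61, 10.43 and 10.81 in stimulated CD8 cells, against 6.03, 7.44 and 4.99 on the arrays labelled unstimulated CD8. In CD4 cells it was 11.52, 11.38 and 10.81 after stimulation, against 5.20, 5.94 and 5.48 on the arrays labelled unstimulated CD4. The third unstimulated value of each lineage is from the array whose markers go against its label. Every stimulated array stood above every unstimulated one. The difference was 4.46 ± 0.55 (SE) in CD8 cells, or 22-fold, with an adjusted p of 0.000274, and 5.69 ± 0.55 in CD4 cells, or 51.8-fold, with an adjusted p of 5.26e-05. The files give no detection calls, and unstimulated signals of 5.20 to 5.94 are not shown to be above background, so that these and the later folds are ratios of deposited signals. The sign of RNA length given above differed between the same groups. Tbx21 was the only 1 of the 5 members called in either lineage, where 8.35% of all genes were called in CD8 cells and 11.4% in CD4 cells. Without the third unstimulated arrays the Tbx21 differences were 3.88 and 5.66, both called, while the share of all genes called went up to 37.9% in CD8 and 65.7% in CD4 cells, with a median difference of all genes of -0.22 and -0.31. The direction of calls over all genes depended on scaling here: in CD8 cells 928 were higher and 107 lower as deposited and 1309 and 1300 after quantile normalization, and in CD4 cells 1320 and 89 against 1438 and 1484. The median difference of all genes was 0.14 in both lineages as deposited, -0.15 after quantile normalization and -0.48 after centring the arrays on their medians. Tbx21 stayed higher and called in both lineages under each of these scalings. The CD8 minus CD4 difference of the response, -1.23 ± 0.77, was not called, nor was any other gene (0% of 12393 in limma, 70 at an unadjusted p below 0.05). It was -1.78 ± 0.58 and again not called without the third unstimulated arrays (adjusted p = 0.124, where 2.49% of genes were called).

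On day 5 Tbx21 followed antigen in CD4 cells, where it was 35.9-fold higher in continuous than in unstimulated cells, while in CD8 cells the continuous and transient groups both stood above the unstimulated one and overlapped each other. The signals in CD4 cells were 11.80, 11.53 and 11.41 with continuous antigen, 8.48 and 8.88 after transient stimulation and 6.63 and 6.19 in unstimulated cells. These 3 groups did not overlap and stood in steps. In CD8 cells the signals were 11.43, 11.96 and 10.11 with continuous antigen, 11.02, 11.02 and 10.82 after transient stimulation, and 7.94, 7.52 and 8.32 in unstimulated cells. Here the continuous arrays lay on both sides of the transient ones, the third continuous array being the lowest of the 6.

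Continuous against transient stimulation changed Tbx21 by 2.90 ± 0.40 in CD4 cells (adjusted p = 8.81e-05). In CD8 cells this difference was 0.21, with a 95% interval of -0.55 to 0.98 and an adjusted p of 0.736. Without the third continuous CD8 array it was 0.74 and called (adjusted p = 0.0323), and without the second it was -0.19. The difference between the lineages was tested itself: CD8 minus CD4 was -2.68 ± 0.53 (adjusted p = 0.00354), and it kept its sign and call when any 1 array was left out. Both transient CD4 arrays carried B cell markers, so leaving out 1 of them cannot show the part of B cells, which was not tested. Against unstimulated cells, continuous antigen raised Tbx21 by 3.23 ± 0.35 in CD8 cells (9.41-fold, adjusted p = 7.61e-06) and by 5.16 ± 0.40 in CD4 cells (adjusted p = 2.73e-06). The CD8 minus CD4 difference of that response was -1.93 ± 0.53 (adjusted p = 0.0218). It was not called without the third unstimulated CD8 array (-1.73) or without the second unstimulated CD4 array (-1.71). Transient stimulation raised it by 3.02 ± 0.35 in CD8 cells (adjusted p = 3.05e-05) and by 2.27 ± 0.43 in CD4 cells (adjusted p = 0.00216), a lineage difference of 0.75 with an interval of -0.45 to 1.96.

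Within a condition, Tbx21 was higher in CD8 than in CD4 cells by 1.52 ± 0.40 in unstimulated cells (adjusted p = 0.0116) and by 2.27 ± 0.40 after transient stimulation (adjusted p = 0.000788). The unstimulated difference was not called without the second unstimulated CD4 array, at 1.30. With continuous antigen the lineages differed by -0.41, interval -1.18 to 0.35. Transient CD4 cells of day 5 read lower in Tbx21 than stimulated CD4 cells of day 2, at 8.68 ± 0.28 (SD, n = 2) against 11.24 ± 0.38 (n = 3). The log2 difference was -2.55 ± 0.51 (adjusted p = 0.00147). For transient CD8 cells the same difference was 0.34, interval -0.60 to 1.28. Both kept their side of the threshold in the fit without the third unstimulated arrays of day 2, with adjusted p of 7.52e-05 and 0.557. Day, host and handling cannot be told apart in such differences. The transient CD4 arrays also had less Cd4 and high B and plasma cell markers, and the part of such cells in their Tbx21 signal was not tested. The order of the 10 group means ran from continuous CD4 cells at 11.58 to unstimulated CD4 cells of day 2 at 5.54. The 4 highest groups (continuous CD4, stimulated CD4 of day 2, continuous CD8 and transient CD8) each overlapped the next, as did the 3 lowest. Stimulated CD8 cells of day 2, transient CD4 cells and unstimulated CD8 cells of day 5 came between them by mean, each apart from its neighbours in that order. The stimulated CD8 arrays of day 2 (10.43 to 10.81) still lay within the range of continuous CD8 cells (10.11 to 11.96).

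**Figure D1:**
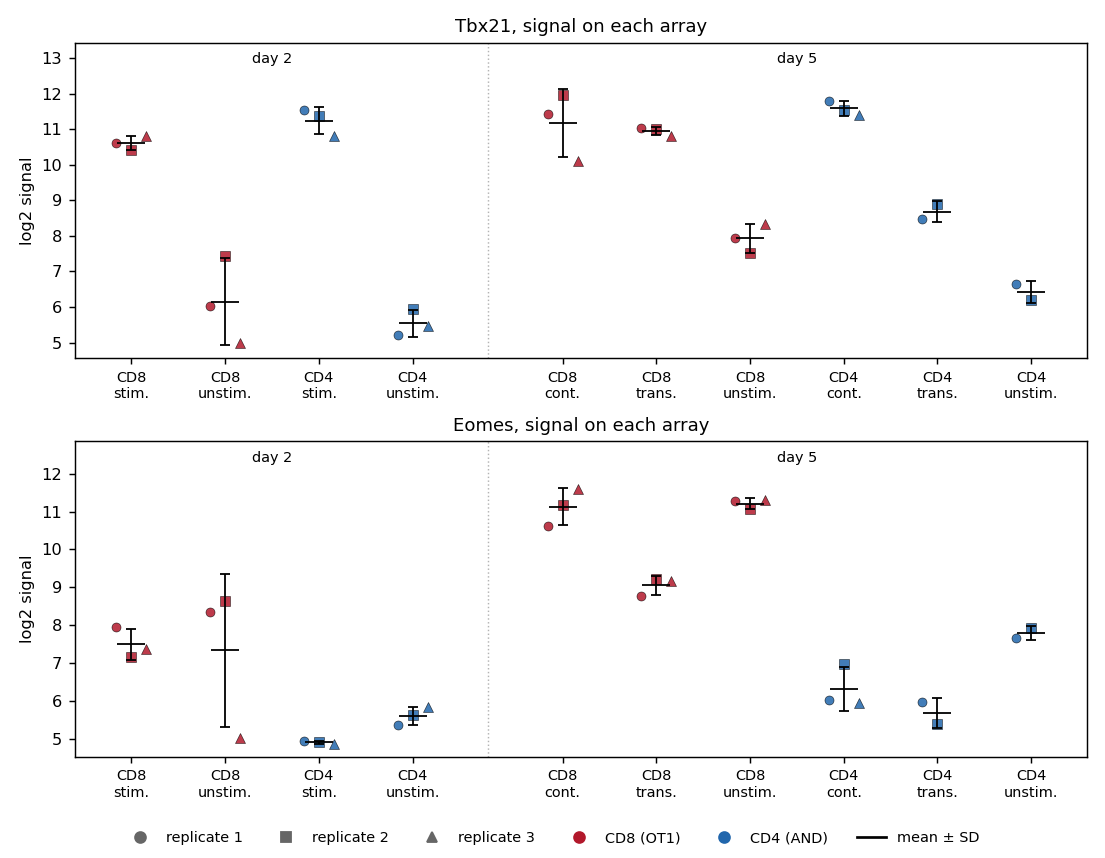
Log2 signal of Tbx21 (upper panel) and of Eomes (probe set 1435172_at, lower panel) on each of the 28 arrays, by group, with the group mean and SD as black bars and the marker shape as the replicate number. Tbx21 in continuous CD8 cells (10.11 to 11.96) spans the transient ones (10.82 to 11.02), while in CD4 cells the day 5 groups stand in 3 steps; Eomes in transient CD8 cells (8.76 to 9.23) lies below both other day 5 CD8 groups.

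Eomes went the other way after transient stimulation. Its probe set of highest mean, 1435172_at, read 8.76, 9.23 and 9.16 in transient CD8 cells, against 11.27, 11.06 and 11.31 in unstimulated CD8 cells. In CD4 cells it read 5.96 and 5.39 after transient stimulation, against 7.66 and 7.93 in unstimulated cells. The groups did not overlap in either lineage. Eomes fell by 2.17 ± 0.28 on the log2 scale in CD8 cells (4.49-fold lower, adjusted p = 7.19e-05) and by 2.11 ± 0.35 in CD4 cells (4.33-fold lower, adjusted p = 0.000757). The CD8 minus CD4 difference of this response was -0.05, interval -1.01 to 0.91. Both transient CD4 arrays carried B and plasma cell markers, and the part of such cells in their Eomes signal was not tested.

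With continuous antigen Eomes was high in CD8 cells, at 10.61, 11.19 and 11.59, and low in CD4 cells, at 6.02, 6.97 and 5.95. Continuous CD8 cells were thus above transient CD8 cells by 2.08 ± 0.28 (4.23-fold, adjusted p = 0.000158), with no overlap. In CD4 cells the continuous minus transient difference was 0.63, interval -0.05 to 1.31, and the groups overlapped. Continuous CD4 cells were below unstimulated CD4 cells by 2.79-fold (log2 difference -1.48 ± 0.32, adjusted p = 0.00448). That call was lost without the second unstimulated CD4 array, at -1.35. The lineages differed in the continuous minus transient difference by 1.45 ± 0.42 (adjusted p = 0.0296) and in the continuous response by 1.40 ± 0.42 (adjusted p = 0.0338). Both of these calls were fragile with this probe set: the first was lost when the first transient CD4, the first or the third continuous CD4, the first transient CD8, or the second or the third continuous CD8 array was left out, with differences of 1.16 to 1.78 over all arrays left out in turn. The continuous response was lost without either unstimulated CD4 array, the first or the third continuous CD4, the second or the third unstimulated CD8, or the second or the third continuous CD8 array, with differences of 1.17 to 1.73.

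The other Eomes probe set, 1426001_at, gave the same lineage pattern but another relation of continuous to unstimulated CD8 cells. It read 9.61, 10.25 and 10.86 in continuous CD8 cells, 7.66, 7.83 and 8.01 in transient CD8 cells and 8.72, 8.66 and 9.08 in unstimulated CD8 cells. Here the continuous arrays stood above all unstimulated ones, by 1.43 ± 0.26 (adjusted p = 0.00058 over 20380 probe sets, 46% of which were called), whereas 1435172_at gave -0.08 with an interval of -0.69 to 0.52. The mean of both probe sets gave 0.67 (adjusted p = 0.0457), so whether Eomes in continuous CD8 cells passed the unstimulated level depends on the probe set. The sign of RNA length also differed between these groups. It was 1.92 to 2.44 in unstimulated, 0.66 to 1.02 in transient and 0.31 to 0.56 in continuous CD8 cells, and its part was not tested. The fall after transient stimulation was called with 1426001_at as well, at -0.99 ± 0.26 in CD8 cells (30.3% of probe sets called) and -1.18 ± 0.32 in CD4 cells (22.8%), and so was the continuous minus transient rise in CD8 cells, at 2.41 ± 0.26 (26.5%). The lineage differences were larger with it, 2.67 ± 0.40 for continuous minus transient (adjusted p = 0.000545, 17.6% of probe sets called) and 2.86 ± 0.40 for the continuous response (adjusted p = 0.000314, 19.1% called).

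**Figure D2:**
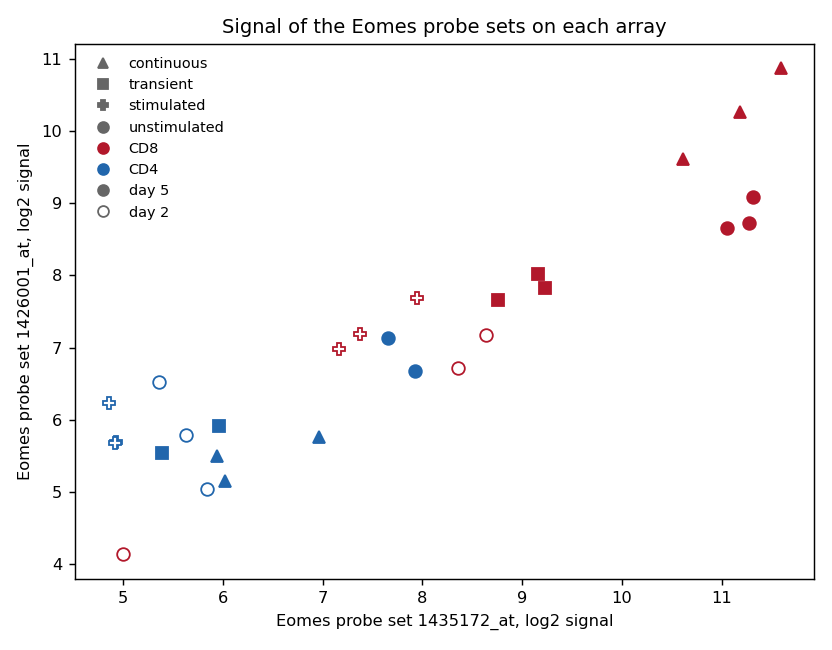
Log2 signal of Eomes probe set 1426001_at (vertical) against 1435172_at (horizontal) on each of the 28 arrays, with CD8 cells in red, CD4 cells in blue, day 5 filled and day 2 open. Continuous and unstimulated CD8 cells of day 5 share a range on the horizontal axis (10.61 to 11.59 and 11.06 to 11.31) but not on the vertical one (9.61 to 10.86 and 8.66 to 9.08).

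Eomes was the member that parted the lineages most. On day 5 CD8 cells exceeded CD4 cells by 4.82 ± 0.28 with continuous antigen (28.2-fold, adjusted p = 2.15e-07), by 3.37 ± 0.32 after transient stimulation (10.3-fold, adjusted p = 7.65e-06) and by 3.42 ± 0.32 in unstimulated cells (10.7-fold, adjusted p = 6.66e-06). No array of a CD8 group overlapped its CD4 partner, and the calls held with any 1 array left out. On day 2 the signals were 7.94, 7.16 and 7.37 in stimulated CD8 cells, against 4.93, 4.91 and 4.86 in stimulated CD4 cells. The difference of 2.59 was not called with all 12 arrays of the day, where 0.0242% of genes were, and was called without the third unstimulated arrays (adjusted p = 0.000924), where 0.702% were. The arrays labelled unstimulated on day 2 read 8.35, 8.64 and 5.00 for CD8 and 5.36, 5.63 and 5.84 for CD4, the third of each being the array whose markers go against its label. That lineage difference was 1.73 with all arrays, when limma called 0 genes and 71 had an unadjusted p below 0.05. It was 3.00 without the third ones (adjusted p = 0.000963), when 13.7% of genes were called. The day 2 values so far are those of the probe set of highest mean. With 1426001_at and all arrays the unstimulated lineage difference was 0.22 ± 0.68 and the stimulated one 1.41 ± 0.68, neither called. Apart from the third ones, 1426001_at read 6.72 and 7.18 in unstimulated CD8 cells, against 6.52 and 5.79 in unstimulated CD4 cells. With the probe set of highest mean, stimulated against unstimulated CD8 cells gave 0.16 with all arrays and -1.004 without the third unstimulated ones (adjusted p = 0.0108). Its direction thus rests on those arrays. With 1426001_at this difference was 1.27 ± 0.68 with all arrays, not called. The stimulated CD8 arrays of 1426001_at read 7.69, 6.98 and 7.19, and overlapped its 6.72 and 7.18 in unstimulated CD8 cells. The fall without the third arrays thus rests on the probe set too. In CD4 cells the probe set of highest mean gave -0.71 with all arrays (adjusted p = 0.636). It gave -0.59 without the third unstimulated ones (adjusted p = 0.0489). There 1426001_at gave 0.08 ± 0.68 with all arrays, not called. From stimulated CD8 cells of day 2 to continuous CD8 cells of day 5 Eomes rose by 3.64 ± 0.57 (12.4-fold, adjusted p = 0.000282), while in CD4 cells that difference was 1.41 ± 0.57 (adjusted p = 0.148). Unstimulated cells, too, read higher on day 5, at means of 11.21 in CD8 and 7.79 in CD4 cells, than on day 2. Day, host and handling cannot be told apart in differences between days. The SE was smaller without the third unstimulated arrays, and the CD4 difference was then called as well (adjusted p = 0.00035). Those of transient minus stimulated cells were called too, at 1.56 in CD8 (adjusted p = 9.93e-05) and 0.78 in CD4 cells (adjusted p = 0.047). These between-day values are again those of the probe set of highest mean. With 1426001_at and all arrays the continuous CD8 rise was called, at 2.96 ± 0.52. Transient CD8 cells gave 0.55 ± 0.52 with it, not called. Its CD4 differences had the opposite sign, at -0.40 ± 0.52 for continuous and -0.15 ± 0.58 for transient cells, neither called. In the order of group means of the probe set of highest mean, the 3 CD8 groups of day 5 came first. Stimulated CD4 cells of day 2 came last at 4.90 ± 0.04 (SD, n = 3). The means of 11.13 in continuous and 11.21 in unstimulated CD8 cells were not parted by their spread.

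On day 5 Id2 moved little within a lineage, and its probe sets did not move together. The probe set of highest mean, 1435176_a_at, read 9.63, 9.76 and 9.64 in transient CD8 cells, against 10.56, 10.41 and 10.33 in unstimulated CD8 cells, a fall of 0.75 ± 0.26 on the log2 scale (adjusted p = 0.0403). The call was lost when any 1 of these 6 arrays was left out (-0.80 to -0.69), and 1422537_a_at and 1453596_at gave 0.17 ± 0.34 and 0.25 ± 0.40, neither called. In CD4 cells 1435176_a_at read 10.88 and 11.41 after transient stimulation, against 10.75 and 10.22 in unstimulated cells. That is 0.66 ± 0.32 (adjusted p = 0.165), where the other probe sets gave -0.51 and -0.91, again not called. The CD8 minus CD4 difference of the transient response was -1.41 ± 0.41 with 1435176_a_at (adjusted p = 0.0153) and 0.14 with the mean of the 3 probe sets (adjusted p = 0.833). It was also lost without the second unstimulated CD4 array (-1.14) or the second transient CD4 array (-1.15).

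With 1435176_a_at, Id2 was lower in CD8 than in CD4 cells after transient stimulation, at a log2 difference of -1.47 ± 0.29 (adjusted p = 0.00191), and with continuous antigen, at -0.86 ± 0.26 (adjusted p = 0.0481). The signals with continuous antigen were 10.23, 9.77 and 9.59 in CD8 cells and 11.07, 11.07 and 10.03 in CD4 cells and overlapped. This call was lost without the second or the third continuous CD8 or the first or second continuous CD4 array (-0.81 to -0.69). The mean of the probe sets gave -0.63 and -0.59, not called. The 1 called Id2 difference outside 1435176_a_at in these lineage comparisons was that of 1422537_a_at in unstimulated cells, -1.12 ± 0.38 (adjusted p = 0.041, where 27.7% of probe sets were called). Over the 10 groups the 1435176_a_at means ran only from 11.14 to 8.59, the lowest of them through the third array labelled unstimulated CD8 of day 2, at 5.32. Transient CD4 cells of day 5 were, without the third unstimulated arrays, called above stimulated CD4 cells of day 2, by 1.30 (adjusted p = 0.0295, against 0.477 with all arrays).

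Id3 was lower with continuous antigen than after transient stimulation in both lineages. It read 9.14, 9.77 and 10.57 in continuous CD8 cells, against 10.94, 11.01 and 10.97 in transient CD8 cells. In CD4 cells it read 9.34, 9.44 and 9.66 with continuous antigen, against 11.12 and 10.12 after transient stimulation. All continuous arrays were below all transient ones of their lineage. Id3 fell by 1.15 ± 0.30 on the log2 scale in CD8 cells (2.22-fold lower, adjusted p = 0.0108) and by 1.14 ± 0.33 in CD4 cells (2.21-fold lower, adjusted p = 0.0166). The lineage difference was -0.01, interval -0.97 to 0.96. The CD8 call was lost without the first continuous array (-0.81, adjusted p = 0.0552) and the CD4 call without the first transient array (-0.64, adjusted p = 0.242). Both transient CD4 arrays carried B and plasma cell markers. Their sign of RNA length was 2.42 to 2.73, against 0.40 to 0.62 in continuous CD4 cells. The part of either in the Id3 difference of CD4 cells was not tested.

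Against unstimulated cells, whose signals were 10.09, 10.42 and 10.37 in CD8 and 10.30 and 9.98 in CD4 cells, no day 5 difference of Id3 was called. Continuous antigen gave -0.47 ± 0.30 in CD8 and -0.66 ± 0.33 in CD4 cells, and transient stimulation gave 0.68 ± 0.30 and 0.48 ± 0.37. Without the third continuous CD8 array the CD8 difference with continuous antigen was -0.84 and called (adjusted p = 0.0165). Without the first transient CD4 array the CD4 transient difference was -0.02. Transient CD8 cells of day 5 exceeded stimulated CD8 cells of day 2, at 9.27, 9.59 and 9.27, by 1.60 ± 0.47 (3.03-fold, adjusted p = 0.0261). The 28-array fit needed all 6 of these arrays for that call, the adjusted p being 0.0541 to 0.0829 when 1 was left out, although the difference stayed at 1.55 to 1.71. Its adjusted p was 0.00907 without the third unstimulated arrays of day 2, and continuous CD4 cells of day 5 were then called below stimulated CD4 cells of day 2, at -1.29 (adjusted p = 0.0357, against 0.102 with all arrays). Unstimulated CD8 cells of day 5 also read above the arrays labelled unstimulated CD8 on day 2, at 9.23, 9.10 and 8.44. Day, host and handling cannot be told apart in these differences. On day 2 the stimulated CD4 arrays were 10.69, 9.46 and 12.16, the widest spread of Id3 in any group, against 8.88, 9.93 and 8.72 on the arrays labelled unstimulated CD4. The difference of 1.59 was not called (adjusted p = 0.108), and was 2.25 and called without the second stimulated array. Without the third unstimulated arrays it was 1.36 (adjusted p = 0.0882), and in CD8 cells it was 0.45 with all arrays and 0.21 without those, not called in either fit.

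Prdm1 was highest with continuous antigen in CD4 cells and in 2 of 3 arrays of CD8 cells. It read 8.16, 7.63 and 5.52 in continuous CD8 cells, 5.33, 5.10 and 5.67 in transient CD8 cells and 7.20, 5.33 and 5.55 in unstimulated CD8 cells. The continuous and transient groups overlapped through the third continuous array. The difference between them was 1.74 ± 0.59 (3.34-fold, adjusted p = 0.0403). It was 2.53 without the third continuous array (adjusted p = 0.00101), and the call was lost without the first (1.21) or the second (1.48) continuous array or without the first (1.72), the second (1.61) or the third (1.89) transient array. Continuous minus unstimulated CD8 cells gave 1.08 ± 0.59 (adjusted p = 0.146), and 1.67 without the first unstimulated array (adjusted p = 0.0293) or 1.87 without the third continuous array (adjusted p = 0.00488), both called.

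In CD4 cells Prdm1 read 8.19, 7.90 and 7.48 with continuous antigen, 6.42 and 7.25 after transient stimulation and 5.93 and 6.19 in unstimulated cells. All 3 groups stood apart. Continuous minus unstimulated was 1.80 ± 0.65 (adjusted p = 0.0691) and continuous minus transient 1.03 ± 0.65 (adjusted p = 0.254), and neither passed the threshold. The first passed it with replicate numbers as a block (2.07, adjusted p = 0.0313). Continuous CD4 cells of day 5 exceeded stimulated CD4 cells of day 2, at 5.69, 6.72 and 4.88, by 2.10 ± 0.65 (4.28-fold, adjusted p = 0.0433). This call was lost when the first or the third stimulated array or any 1 continuous array was left out, with differences of 1.66 to 2.57 over all arrays left out. The adjusted p was 0.00606 without the third unstimulated arrays of day 2, and the same difference in CD8 cells, 1.60, was called too (adjusted p = 0.0387, against 0.208 with all arrays). Stimulation on day 2 gave no call for Prdm1 with all arrays, at -0.20 in CD8 and -0.37 in CD4 cells. Without the third unstimulated arrays the CD8 difference was -0.23 and the CD4 difference -1.23 ± 0.46, with only the CD4 one called (adjusted p = 0.0397). The CD4 difference with all arrays had the opposite sign without the first unstimulated (0.17) or the third stimulated CD4 array (0.07). Both of these fits kept the third unstimulated arrays.

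Since Prdm1 is also a gene of plasma cells and macrophages, the levels of their markers on the day 5 arrays are given beside it. The lists hold 8 myeloid markers, all measured, and 7 plasma cell markers, of which 5 were measured. Among the plasma cell markers is Irf4, which activated T cells express too, whereas Jchain, the immunoglobulin joining chain, marks antibody-secreting cells. Jchain was named after its values were seen.

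In unstimulated CD8 cells the first array, with Prdm1 at 7.20, had a myeloid mean of 9.43, a plasma cell mean of 9.03 and Jchain at 13.89. The other unstimulated CD8 arrays had myeloid means of 4.91 and 7.14, plasma cell means of 6.01 and 6.14 and Jchain at 4.15 and 4.25. The same array was thus the highest of its group in Prdm1 and in both lists. In continuous CD8 cells the third array, with Prdm1 at 5.52, had the highest plasma cell mean (8.44, against 7.18 and 7.39) and Jchain at 10.94, against 4.96 and 5.58, while the first, with Prdm1 at 8.16, had the highest myeloid mean (7.66, against 5.78 and 6.46). In transient CD8 cells the first array had Jchain at 12.38 and a plasma cell mean of 8.12 with Prdm1 at 5.33. On the 3 CD8 arrays with the highest Jchain, Prdm1 was 7.20, 5.33 and 5.52, and the part of plasma cells in it was not tested. The means over the B cell markers were 5.68 to 7.95 in unstimulated, 5.79 to 6.58 in transient and 5.75 to 7.27 in continuous CD8 cells.

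In continuous CD4 cells the first array, which held the highest Prdm1 of the 28 (8.19), was also the highest of its group in myeloid markers (8.05, against 5.03 and 5.66), in plasma cell markers (8.12, against 7.32 and 6.91) and in Jchain (8.73, against 4.44 and 4.58). Both transient CD4 arrays were high in plasma cell markers, with means of 8.75 and 8.97 and Jchain at 12.34 and 13.79. Their myeloid means were 6.90 and 9.22, the lower one below the 8.05 of the first continuous CD4 array. In unstimulated CD4 cells the plasma cell means were 7.14 and 6.27, Jchain 8.34 and 4.07, and the myeloid means 7.94 and 6.15. The transient CD4 arrays carried B cell markers as well: the mean over the 7 of 8 measured was 9.54 and 8.08, against 5.28 to 5.76 in continuous and 5.40 to 6.31 in unstimulated CD4 cells. Of those 7 genes 4 were called higher in transient than in unstimulated CD4 cells, and 6 lower in continuous than in transient ones. Ms4a1, the B cell surface protein CD20, read 12.85 and 11.13 in transient CD4 cells, against 7.33 and 5.30 in unstimulated ones.

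Natural killer cells, which express Tbx21 and Eomes, were followed by 6 markers, of which 4 were measured. Their mean was 7.33 on the first unstimulated CD8 array and 7.32 on the second transient CD4 array, against 4.61 to 6.15 on the other arrays of day 5. Of the 4, Tyrobp is also on the myeloid list. Ncr1, the receptor NKp46 that defines these cells, was 4.16 to 4.61 on all 16 arrays of day 5, and Klra8, a Ly49 receptor, 3.35 to 4.07. The part of plasma, myeloid and B cells in the values of the 5 members on those arrays was not tested.

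**Figure D3:**
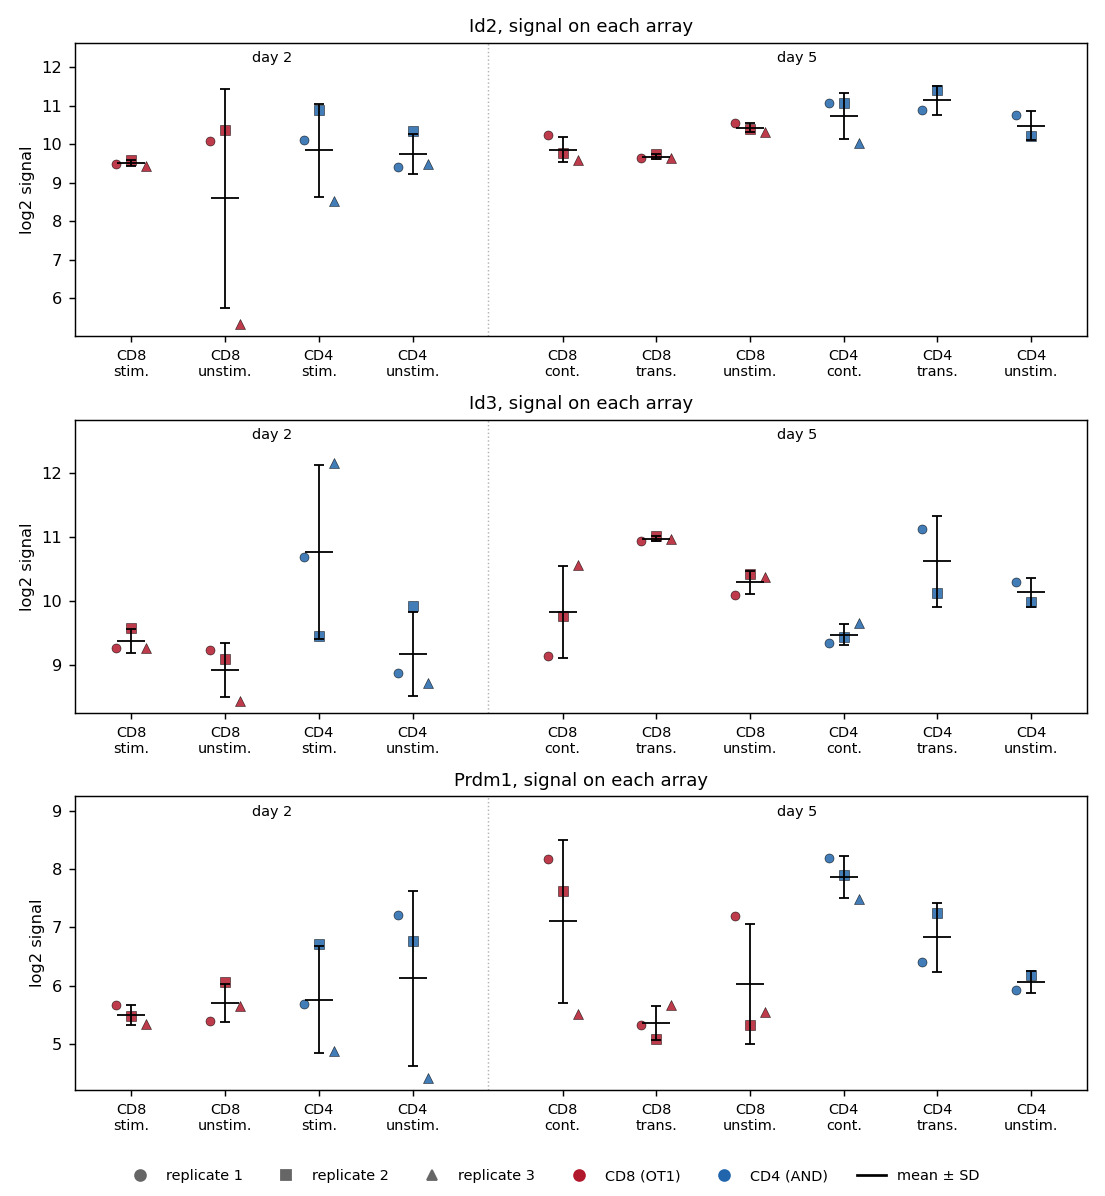
Log2 signal of Id2 (probe set 1435176_a_at), Id3 and Prdm1 on each of the 28 arrays, by group, with the group mean and SD as black bars and the marker shape as the replicate number. Id3 in continuous cells lies below transient cells in both lineages (9.14 to 10.57 against 10.94 to 11.01 in CD8 cells), and the third continuous CD8 array is the low Prdm1 value (5.52) of its group.

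Set together, the day 5 comparisons called 1 to 3 of the 5 members. Continuous minus transient called 3 in CD8 cells (Eomes and Prdm1 higher, Id3 lower), where 27.2% of all genes were called, and 2 in CD4 cells (Tbx21 higher, Id3 lower), where 34.1% were. Continuous minus unstimulated called 1 in CD8 cells (Tbx21, background 47.3%) and 2 in CD4 cells (Tbx21 higher, Eomes lower, background 20.7%). Transient minus unstimulated called 3 in CD8 cells (Tbx21 higher, Eomes and Id2 lower, background 31.8%) and 2 in CD4 cells (Tbx21 higher, Eomes lower, background 22.8%). Among CD8 minus CD4 differences, 2 members were called with continuous antigen (11.2% of genes), 3 after transient stimulation (27.1%) and 2 in unstimulated cells (28.7%). For the responses, 2 were called in the continuous minus transient difference (18.9%), 2 in the continuous response (19.7%) and 1 in the transient response (37.5%). With the third unstimulated arrays of day 2 left out, the fit between days called 26.6% of genes in continuous CD8, 36.2% in transient CD8, 33.6% in continuous CD4 and 36.8% in transient CD4 cells. With all arrays, 1 member was called in each of the 4 between-day comparisons: continuous CD8 (Eomes, 4.68% of genes), transient CD8 (Id3, 12.8%), continuous CD4 (Prdm1, 9.01%) and transient CD4 (Tbx21, 12.7%). Day, host and handling cannot be told apart in any of these comparisons. The day 5 calls rest on a spread estimated within day 5. In 1 fit of all 28 arrays, which hold the discordant day 2 arrays, 15 of them were lost: every Id2 and Id3 call, that of Prdm1 in continuous minus transient CD8 cells, each call on a lineage difference of responses, the 2 Eomes calls within CD4 cells, and those of Tbx21 in transient minus unstimulated CD4 cells and between unstimulated CD8 and CD4 cells. The differences themselves were the same in that fit. Quantile normalization ended the calls on the lineage difference of the continuous response for Eomes (1.22, adjusted p = 0.0676) and on Id2 between continuous CD8 and CD4 cells (-0.86, adjusted p = 0.0537), and a robust variance fit ended that on Prdm1 (adjusted p = 0.0646). With so few members and such backgrounds, nothing particular to the members is read from these counts. The comparisons of a lineage share groups, so their values are not independent of each other.

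**Figure D4:**
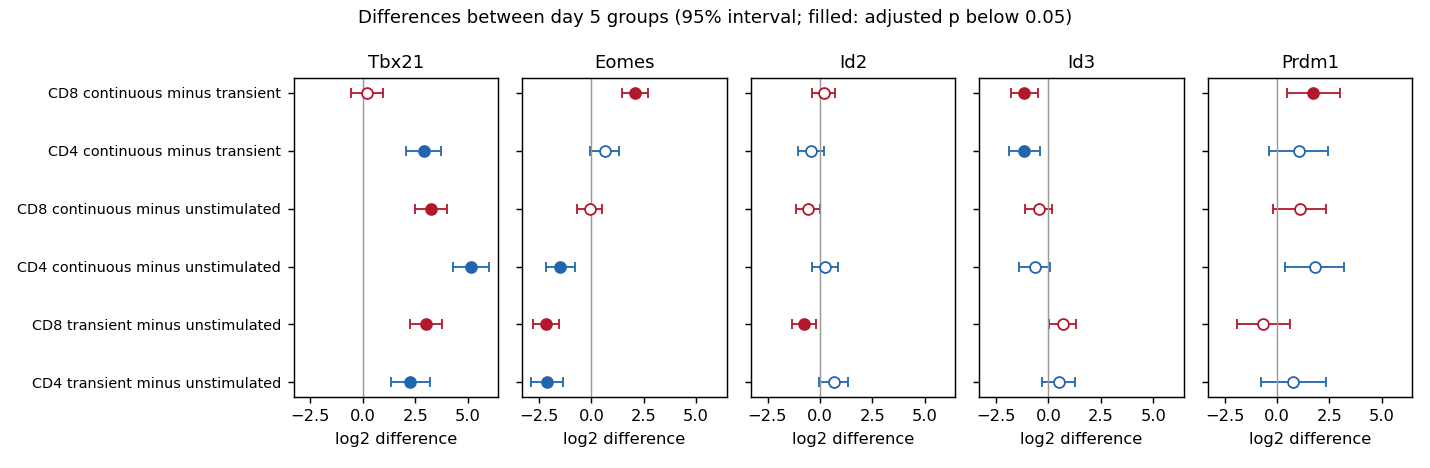
Log2 difference of each member in the 6 within-lineage comparisons of day 5, with CD8 cells in red and CD4 cells in blue, bars as 95% intervals and filled points for an adjusted p below 0.05. For continuous minus transient, Tbx21 is near 0 in CD8 cells (0.21) and at 2.90 in CD4 cells, Eomes is at 2.08 and 0.63, and Id3 at -1.15 and -1.14.

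Genes known as T-box targets and type 1 effector genes were counted from a list of 18, all of them measured. In continuous against unstimulated CD8 cells 13 rose and 1 fell, or 77.8% called beside 47.3% of all genes, with a median difference of 1.77 beside -0.12 for all genes. In CD4 cells 13 rose and none fell, or 72.2% beside 20.7%, with a median of 3.37 beside -0.02. Gzmb, the cytotoxic protease granzyme B, rose by 5.40 ± 0.69 in CD8 and 7.45 ± 0.77 in CD4 cells, and Ifng, interferon-γ, by 5.09 ± 0.62 and 5.83 ± 0.69. Gzmk, granzyme K, was the further gene of largest change in CD8 cells at 4.92, and Nkg7, a cytotoxic granule protein, that in CD4 cells at 5.69.

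The list also moved between continuous and transient CD8 cells. In CD8 cells, with Tbx21 at 0.21, 7 of the 18 genes rose and 2 fell, or 50.0% called beside 27.2% of all genes, with a median of 0.54 beside -0.05 for all genes. Without the third continuous CD8 array, when the Tbx21 difference was 0.74, 10 rose and 1 fell, with a median of 1.05. Gzmk rose by 4.88, Ifng by 4.52 ± 0.62 and Gzmb by 4.13 ± 0.69. In CD4 cells, with Tbx21 at 2.90, 11 rose and none fell, or 61.1% beside 34.1%, with a median of 1.74 beside -0.06, led by Gzmb at 5.71 ± 0.77, Gzmk at 4.78 and Ifng at 4.25 ± 0.69. The CD8 minus CD4 difference of this change was 0.26 ± 0.92 for Ifng and -1.58 ± 1.03 for Gzmb, neither called.

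Cxcr3, the chemokine receptor of type 1 cells, was the listed gene with the largest change after transient stimulation. It rose by 1.91 ± 0.26 in CD8 and 4.95 ± 0.32 in CD4 cells, when Tbx21 rose by 3.02 and 2.27. With continuous against transient stimulation it fell by 0.84 ± 0.26 on the log2 scale in CD8 cells, while in CD4 cells its difference was -0.09 ± 0.29. Ifng and Gzmb were not called after transient stimulation, at 0.57 ± 0.62 and 1.27 ± 0.69 in CD8 and at 1.57 ± 0.75 and 1.74 ± 0.84 in CD4 cells. Transient stimulation called 5 of the 18 higher and 1 lower in CD8 cells, and 3 higher and 1 lower in CD4 cells. These shares of 33.3% and 22.2% were near the 31.8% and 22.8% of all genes called. Il2rb, the receptor chain for IL2 and IL15, rose in CD8 cells both after transient stimulation (1.63 ± 0.34) and with continuous antigen (1.79 ± 0.34), and gave 0.57 ± 0.41 and 0.71 ± 0.38 in CD4 cells. Il12rb2, a chain of the IL12 receptor, rose in continuous CD4 cells by 0.86 ± 0.26, and gave 0.58 ± 0.23 in continuous CD8 cells (adjusted p = 0.0521).

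Other lists hold the partners of the members, and continuous minus transient stimulation called 27.2% of all genes in CD8 and 34.1% in CD4 cells. Of 10 measured effector transcription factors, 5 rose and none fell in continuous against transient CD8 cells, led by Irf8 (2.85), Bhlhe40 (2.68) and Irf4 (2.38), and 2 rose in CD4 cells, Batf (1.35) and Hif1a (0.75), a share below that of all genes. Irf4 and Batf are known as factors that act together downstream of the T cell receptor. Of 10 naive and memory transcription factors, 1 rose and 5 fell in that CD8 comparison, with Satb1 at -1.47, Foxo1 at -1.24 and Foxp1 at -1.02, while 2 rose and 2 fell in CD4 cells. Foxo1 is known to hold T-bet low and Eomesodermin high in memory CD8 cells of mice.

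The 6 genes of E proteins and further Id factors, the binding partners and kin of Id2 and Id3, were called less evenly. In CD8 cells 1 fell with continuous against transient stimulation, Tcf12 at -0.85. In CD4 cells 4 fell, led by Lyl1 (-2.23), Tcf4 (-2.06) and Tcf12 (-1.37), and the transient CD4 arrays are those with the B cell markers given above. Of 9 measured opponents and repressed targets of Blimp-1, Ccr7, the lymph node homing receptor, fell by 1.51 on the log2 scale in CD8 cells and fell by 1.75 in CD4 cells, in continuous against transient stimulation. It was the only call of the list in CD8 cells with all arrays, where 3 genes fell without the third continuous array. In CD4 cells 4 genes of the list fell, led by Spib at -3.53, or 44.4% beside 34.1% of all genes. The transient CD4 arrays of that comparison are again those with B cell markers, and the part of B cells in these falls was not tested. Among the inducers and partners of T-bet, 9 of 10 measured, 2 rose and 1 fell in each lineage in continuous against unstimulated cells. That is 33.3% of the list in each, beside 47.3% of all genes in CD8 and 20.7% in CD4 cells, so that nothing about the list is read from the count. Those that rose were Il12rb1, a chain of the IL12 receptor, by 1.33 in CD8 and 1.31 in CD4 cells, and Stat4, its signal transducer, by 0.59 and 1.25, while Ifngr2, a chain of the interferon-γ receptor, fell by 0.89 and by 0.65 on the log2 scale. The 147 calls of these 6 lists in the day 5 comparisons within a lineage were recomputed after quantile normalization and after median centring, and those of CD8 cells also without the first unstimulated or the third continuous array. This gave 397 values, of which 0 had the opposite sign and 32 were no longer called. Quantile normalization ended 12 of 147, among them 3 of the T-box target list in continuous minus unstimulated CD8 cells, and median centring 5 of 147. Leaving out the first unstimulated CD8 array ended 7 of 48 and leaving out the third continuous CD8 array 8 of 55.

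The genes most like and unlike each member were taken from 4011 genes whose group means spanned at least 2 log2 units, by Pearson's r over the 26 arrays other than the third unstimulated ones of day 2. These values describe arrays that share groups and scaling, and carry no test. Tbx21 was most like Gem (r = 0.95), Birc5 (0.93) and Dera (0.92), and most unlike Carns1 (-0.90), Ifnz (-0.89) and Rabac1 (-0.88). Gem is a small GTP-binding protein and Birc5, survivin, a gene of dividing cells. Eomes was most like H2-D1 (0.85), a class I histocompatibility gene, and the CD8 coreceptor chains Cd8b1 (0.84) and Cd8a (0.83), all of them higher in the CD8 arrays, and most unlike Sdcbp2 (-0.74), H2-T3 (-0.73) and Ckb (-0.73).

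Prdm1 was most like Entpd1 (0.87), the ectonucleotidase CD39, then Cemip2 (0.80) and Tmem163 (0.79). It was most unlike Il4ra (-0.73), a chain of the IL4 receptor, Rtl6 (-0.71) and Ivd (-0.71). Over the 16 arrays of day 5 the values were 0.90 for Entpd1 and -0.94 for Il4ra, and over all 28 arrays they were 0.88 and -0.31, with Rtl6 at -0.18 and Ivd at -0.08. For Id2 the closest genes were Sema4f (0.77), St8sia1 (0.76) and Sec24d (0.71), and the farthest Rtl6 (-0.67), Ppp5c (-0.65) and Usp11 (-0.65). For Id3 they were Ppcdc (0.68), Extl3 (0.67) and St3gal1 (0.66), with Cxcr4 (-0.57), Metrnl (-0.54) and Ttc39c (-0.53) at the other end. Over all 28 arrays St8sia1 dropped to 0.56 for Id2, and Rtl6, Ppp5c and Usp11 came to 0.22, 0.28 and 0.10, and for Id3 Metrnl came to -0.26 and Ttc39c to -0.18. The genes most unlike Id2 and Prdm1, and 2 of the 3 most unlike Id3, thus depend on the third unstimulated arrays.

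Among themselves, Tbx21 and Eomes had an r of -0.01 over the 26 arrays, of -0.05 over those of day 5 and of 0.12 over all 28. Id3 and Prdm1 ran against each other, with r = -0.52 over 26 arrays, -0.86 over the 16 of day 5 and -0.30 over all 28. Their opposition was also seen inside groups, after each group's mean was taken off: r of the deviations was -0.77 over 26 arrays. Leaving out the third stimulated CD4 array of day 2 and the third continuous CD8 array, chosen after the data were seen, gave -0.68 over 24. In groups left with 2 arrays the deviations mirror each other, so that there are fewer independent values than arrays. These r values carry no test. In continuous CD8 cells the first array was highest for Prdm1 and lowest for Id3, and the third was lowest for Prdm1 (5.52) and highest for Id3 (10.57). In transient CD4 cells the second array had the higher Prdm1 (7.25) and the lower Id3 (10.12). Id2 and Id3 had deviations with r = -0.68, which became -0.25 without those 2 arrays, and Tbx21 and Prdm1 had 0.57, which became 0.12. The 10 pairs of members were all computed, and the remaining ones lay between -0.36 and 0.55.

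**Figure D5:**
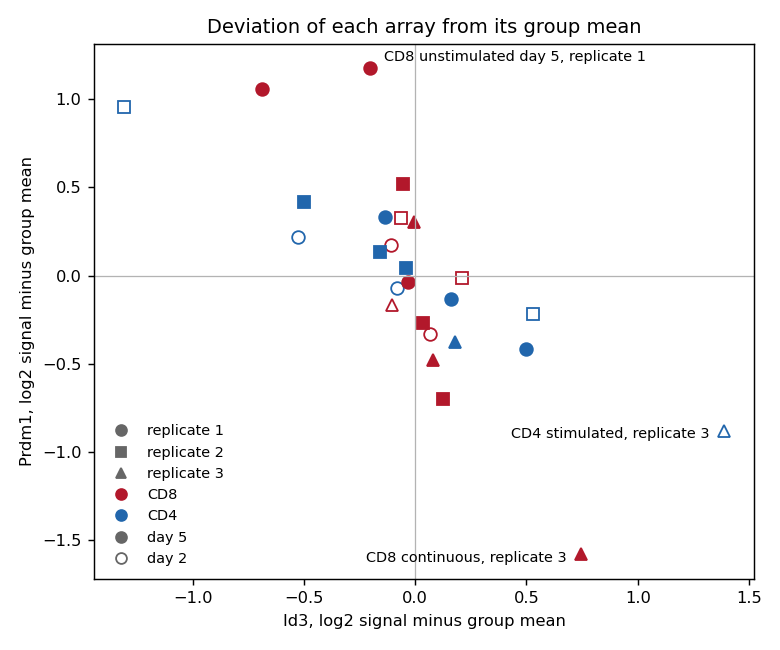
Deviation of each of 26 arrays from its group mean, in log2 units, for Prdm1 (vertical) against Id3 (horizontal), with CD8 cells in red, CD4 cells in blue, day 5 filled, day 2 open and the marker shape as the replicate number. The points fall from upper left to lower right (r = -0.77, and -0.68 without the third stimulated CD4 array of day 2 and the third continuous CD8 array).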

How the data were processed

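RNA of 28 samples was hybridised to Affymetrix mouse expression arrays, with 1 array per sample. The values used are the deposited log2 signals of 22690 probe sets, summarised with RMA per the submitters' processing notes (its version is not given in the sources used here), with an array median of 6.29 to 6.53 on 26 arrays. Where arrays are scaled to each other, as RMA commonly does, a change shared by most genes cannot be seen, but 2 arrays here had medians of 4.83 and 4.97. Depth has no meaning for arrays, and their number limits the precision.

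Symbols came from the platform annotation. Left out were 64 controls, 691 probe sets that name more than 1 gene and 1555 that name no gene. Each of 12393 genes was represented by its probe set of highest mean. Group means were compared with limma 3.58.1 in R 4.3.3 (lmFit and eBayes), in 1 fit per day (12 and 16 arrays) and in 1 of all 28 arrays for differences between days, with Benjamini-Hochberg adjustment over all genes. The fit was tested on simulated data. SE is that of the fit, SD that of the arrays of a group, and intervals cover 95%. The design text calls the replicates independent.

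All 5 members are described in every group. Genes of other lists were named where called, up to 3 by size of change, together with Ifng, Gzmb, Cxcr3, Il2rb and Il12rb2, and 3 genes on each side for likeness. The members and all lists were chosen with earlier results of these data known. Alternatives covered scaling, filters, the choice of probe set, the variance model, array weights, the replicate block and the removal of single arrays. Motifs were counted with Python 3.11.15. Replicate numbers marked no stated pairing. Only for transient and unstimulated CD8 cells of day 5 were all 3 same-numbered pairs correlated above 0.1 (r = 0.50, 0.36 and 0.15), and that pairing comes from the data alone.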

Additional observations from a re-analysis of the deposited data

Results flagged for a closer look

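The responses of the lineages differed, by a test of the difference itself, for 3 members on day 5. For Tbx21 the CD8 minus CD4 difference was -2.68 in the continuous minus transient comparison and -1.93 in continuous minus unstimulated. For Eomes these were 1.45 and 1.40. For Id2 the difference was -1.41 in transient minus unstimulated, with 1435176_a_at only. Lineage, receptor and antigen cannot be told apart in them. Each of these calls was lost in 1 fit of all 28 arrays. All but that of Tbx21 in continuous minus transient were also lost when some single array was left out. The transient CD4 arrays and the first unstimulated CD8 array carried plasma cell markers, and the part of such cells was not tested.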

How the results depend on the processing

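Of 984 alternative values of 57 differences, 859 kept direction and side of the threshold, 82 lost the call (48 of them by leaving out 1 array), 21 gained it and 22 turned in sign. The cause was not tested, beyond the smaller number of arrays where some were left out. Turned values, in CD8 cells of day 2 for stimulated minus unstimulated, were -0.49 for Eomes and -0.60 for Id3 after quantile normalization, -0.46 and -0.17 after median centring, and for Eomes -1.13 with array weights and -1.004 without the third unstimulated arrays. With the mean of probe sets they were -0.26 for Id2 in transient minus unstimulated CD4 cells, 0.67 for Eomes in continuous minus unstimulated CD8 cells, and 0.069 for Eomes and 0.14 for Id2 in the lineage difference of the transient response. With array weights, Tbx21 in continuous CD8 minus CD4 cells was 0.10. With single arrays left out, ranges that crossed 0 were -1.23 to 0.17 (Prdm1, stimulated minus unstimulated CD4 of day 2), -1.004 to 0.82 (Eomes, the same in CD8), -0.34 to 0.23 (Eomes, lineage difference of the transient response), -0.017 to 0.98 (Id3, transient minus unstimulated CD4), -0.32 to 0.18 (Eomes, continuous minus unstimulated CD8), -0.19 to 0.74 (Tbx21, continuous minus transient CD8) and -0.81 to 0.11 (Tbx21, continuous CD8 minus CD4). The share of all genes called moved with the setting too, so nothing about the members is read from their counts. For CD4 stimulation that share was 11.4% with all arrays of day 2 and 65.7% without the third unstimulated arrays. Counts of the 5 members called moved as follows. In 1 fit of all 28 arrays they were 2 for CD4 stimulation, 0 for transient minus unstimulated CD4, 1 for each other CD4 comparison of day 5, for continuous minus transient CD8 and for the unstimulated and continuous CD8 minus CD4 comparisons, and 0 for the 3 lineage differences of responses. With array weights they were 2 for CD8 stimulation and transient CD8 between days, and 3 for stimulated CD8 minus CD4, continuous minus unstimulated CD8 and the other between-day comparisons. Without the third unstimulated arrays they were 3 for CD4 and 2 for CD8 stimulation, 1 for either CD8 minus CD4 comparison of day 2, and 3 for both CD4 and 2 for both CD8 comparisons between days. At an adjusted p below 0.01 they were 1 for continuous minus transient in CD8 and CD4 and in their difference, and for unstimulated and continuous CD8 minus CD4, and 0 for the transient and continuous responses, continuous CD4 and transient CD8 between days. Continuous CD8 minus CD4 called 1 with all probe sets, their mean or quantile normalization, where the continuous response also called 1. Continuous minus unstimulated CD8 called 2 with the mean of probe sets or quantile normalization, and the transient response called 0 with that mean. Median centring called 2 for continuous CD4 and transient CD8 between days. With single arrays left out, counts were 0 to 2 for the continuous response and continuous CD4 between days, 0 to 1 for the transient response, transient CD8 between days and unstimulated CD8 minus CD4 of day 2, 1 to 3 for continuous minus unstimulated CD8, 1 to 4 for continuous minus transient CD8, and 1 to 2 for CD4 stimulation, both continuous CD4 comparisons, the lineage difference of continuous minus transient, unstimulated and continuous CD8 minus CD4, and continuous CD8 between days. With the replicate number as a block, 1 call changed, Prdm1 in continuous minus unstimulated CD4 cells (2.07, adjusted p = 0.0313). Id2 in transient minus unstimulated CD8 cells was -0.75 (adjusted p = 0.0249) with the block. For transient minus unstimulated CD4 cells, where same-numbered arrays correlated at -0.21, the crossed pairing called 1249 genes higher and 1643 lower, against 1197 and 1624 without a block.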
